A study of Mus musculus with 120 samples.

Results

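The genes described here are 9 transcription factors that specify or maintain group 2 innate lymphoid cells (ILC2): Gata3, Rora, Bcl11b, Id2, Tcf7, Ets1, Gfi1, Zbtb16 and Tox. They were taken by name from the 46078 gene identifiers counted, and all 9 were matched to 1 identifier each. In GRCm38 (GENCODE annotation) Rora lies on chromosome 9 at 68653786 to 69388246, Gata3 on chromosome 2 at 9857078 to 9890034, Id2 on chromosome 12 at 25093799 to 25097140 and Ets1 on chromosome 9 at 32636221 to 32757820. At least 1 read was counted for 8 of them, and 5 had a mean of at least 50 counts per 1000000 gene reads (CPM) over the groups. Each library was 1 mouse ILC2, and the 120 cells fell into 12 groups of 2 indexes and 6 states. The index was the cytokine, IL-13 or IL-5, whose secretion was imaged. In each index there were 5 pre-stimulation cells (treatment none) and 11 cells each taken 30, 60 or 90 min after the onset of secretion, 11 activated cells, which were secreting at the end of imaging, and 11 silent cells, which were not. All cells came from wildtype C57BL/6 mice, sorted from the pooled mesentery of 20 animals by c-Kit and Sca-1 and the absence of lineage markers, grown in culture with IL-2, and, apart from the pre-stimulation cells, stimulated with IL-2 and IL-33.

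ILC2 are tissue lymphocytes without antigen receptors that release type 2 cytokines within hours of an alarm signal such as IL-33. Their identity rests on a small circuit of transcription factors. Gata3 is the master regulator of type 2 programmes, Rora is a nuclear receptor needed for ILC2 development, and Id2 blocks E proteins, the helix-loop-helix factors that would otherwise direct lymphoid progenitors towards T and B cell fates. Tcf7, Tox, Zbtb16 (encoding PLZF) and Ets1 act at progenitor stages or in their expansion, and Gfi1 and Bcl11b keep mature ILC2 from taking on features of ILC3. The comparison asked which of these factors kept their level and which shifted once the cells had been stimulated.

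No animal or culture was named for a single cell, so each group counted as 1 sample. No test between groups was possible, and the intervals on levels and ratios cover counting error only, in reads that carry no molecular identifiers. An interval on a share of cells counts cells, and covers no spread between cultures or animals. Depth was 65 to 785198 gene reads per cell with a median of 254001. Depth fell short of 84667 reads (the median divided by 3) in 6 of the 120 cells, and 5 of these 6 were transition cells (30, 60 or 90 min). Libraries were pooled by 5 or 6 before tagmentation, and which cells shared a pool is not given in the sources used here. Each group also held 5 or 6 cells per title date. Pool and state may therefore coincide, and in that case could not be told apart. All pre-stimulation cells came from the first of the 2 title dates of their index. CPM are shares of a cell's gene reads and say nothing of RNA per cell. In activated cells the cytokine genes Il9, Il13, Il5 and Csf2 together took 5.94% (IL-13 index) and 7.65% (IL-5 index) of gene reads, against at most 0.0028% in pre-stimulation cells.

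The sequences just upstream of 3 of these genes are shown because they carry the main contrast of the data: Rora, whose level shifted the most among the factors read in nearly every cell, and Gata3 and Id2, whose summed levels shifted less. They are the 250 bases before the RefSeq start site (GRCm38.p6), written 5′ to 3′ along the gene. The Rora sequence is chr9:68653536-68653785 on the plus strand, and it ends where the annotated gene begins. The Gata3 sequence is chr2:9878601-9878850 and the Id2 sequence is chr12:25096093-25096342, both on the minus strand and both inside the span of the annotated gene, which reaches further upstream. Capitals mark matches, on either strand, to the E-box CANNTG, the GATA motif GATAA, the AP-1 motif TGANTCA, the STAT motif TTCNNNGAA or the NF-kappaB motif.
Rora: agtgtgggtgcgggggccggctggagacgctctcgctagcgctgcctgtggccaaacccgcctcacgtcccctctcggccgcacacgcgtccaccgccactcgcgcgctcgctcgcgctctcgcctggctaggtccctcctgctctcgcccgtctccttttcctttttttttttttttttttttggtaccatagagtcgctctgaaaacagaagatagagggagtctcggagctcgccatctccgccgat
Gata3: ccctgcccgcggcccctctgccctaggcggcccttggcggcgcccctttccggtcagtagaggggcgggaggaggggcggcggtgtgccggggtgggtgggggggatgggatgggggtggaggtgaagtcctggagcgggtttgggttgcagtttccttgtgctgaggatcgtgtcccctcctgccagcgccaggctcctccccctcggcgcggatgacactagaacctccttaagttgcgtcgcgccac
Id2: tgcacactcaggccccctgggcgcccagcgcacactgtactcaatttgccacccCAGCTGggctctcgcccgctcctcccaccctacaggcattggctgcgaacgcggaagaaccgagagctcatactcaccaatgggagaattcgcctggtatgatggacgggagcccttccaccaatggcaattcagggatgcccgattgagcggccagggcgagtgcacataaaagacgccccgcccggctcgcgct
The single match in the 3 sequences was an E-box, CAGCTG, that begins 196 bases before the Id2 start. An E-box lay in 66.2% of the 32851 promoter windows of this length, GATAA in 22.6%, and the AP-1, STAT and NF-kappaB motifs in 6.75%, 7.02% and 7.25%. The libraries were made from the 3′ ends of transcripts, so the reads do not tell which start a transcript used.

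Gata3, Id2 and Rora were read in nearly every cell, and the other 6 factors in a minority. Reads were counted for Gata3 in 116 of 120 cells, for Id2 in 115 and for Rora in 114. The numbers were 50 for Ets1, 29 for Bcl11b, 18 for Tox, 7 for Tcf7 and 5 for Gfi1. To compare detection at one depth, each of the 113 cells that reached 100000 gene reads was thinned to that number, which left out 7 cells, all from stimulated groups. After thinning, Gata3 was detected in 97.3%, Rora in 96.5% and Id2 in 95.6% of cells. Of the 114 cells above the depth limit, 107 held reads of all 3 factors, and 0 held none of them. A cell held reads of 2 to 6 of the 9 factors, with a median of 4.

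**Figure D1:**
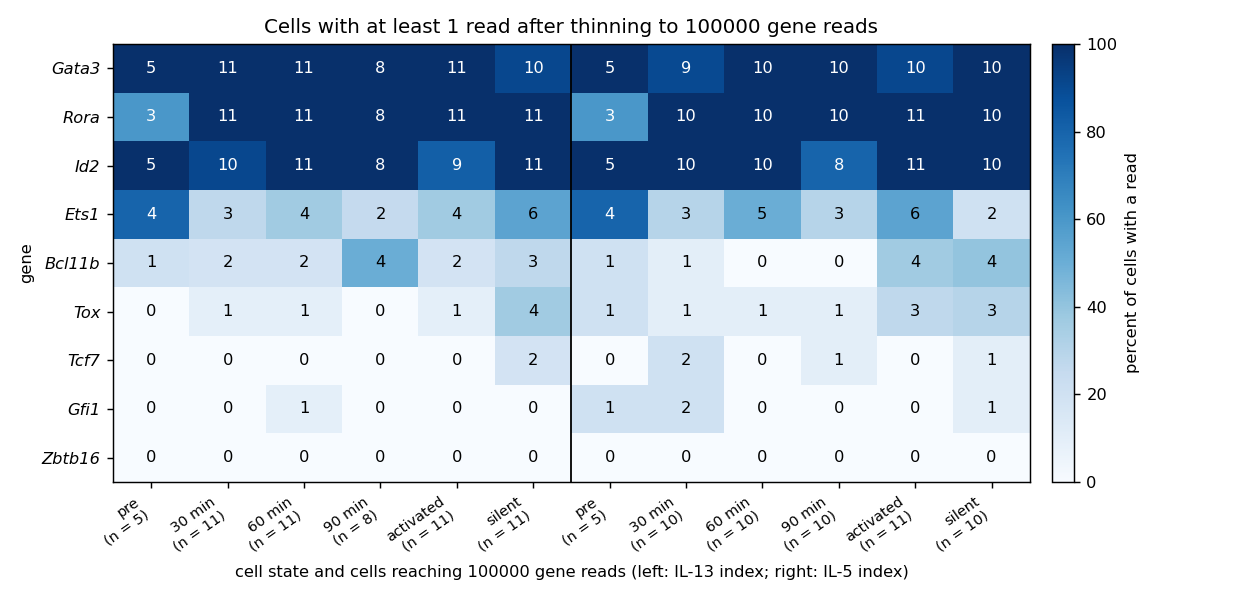
Number of cells (digits) and percent of cells (colour, 0 to 100) with at least 1 read of each factor after thinning to 100000 gene reads, by state and index. Gata3 and Id2 are at 80.0% or more in every group, Rora is at 3 of 5 cells in both pre-stimulation groups and at 100% in all stimulated groups, Ets1 is at 4 of 5 cells in both pre-stimulation groups, and the other 5 factors reach at most 4 of 8 cells (Bcl11b, IL-13 index, 90 min).

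Read against other genes of similar level, the factors were not unusually even. The highest group CPM was 5.26 times the lowest for Gata3, 4.84 times for Id2 and 17.4 times for Rora. The median of this quantity was 2.96 over the 327 genes with a mean of at least 500 CPM, and 77.7%, 73.4% and 92.7% of these genes had a smaller range than Gata3, Id2 and Rora. Over the 2658 genes with a mean of at least 50 CPM the median was 12.8, Ets1 stood at 15.1, and Bcl11b at 170.3 or more, since it had groups with 0 reads and the floor of 3 reads was used there.

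Rora was low before stimulation and higher in every stimulated state of both indexes. The 5 pre-stimulation cells held 16.3, 77.0, 339.9, 0 and 69.5 CPM in the IL-13 index and 427, 108, 0, 477 and 0 CPM in the IL-5 index. Summed, this gave 91.3 CPM (95% interval 73.2 to 112) and 189.7 CPM (166 to 216). In the IL-13 index the group level was then 1197 CPM at 30 min, 1056 at 60 min, 716 at 90 min, 546 in activated and 558 in silent cells. The IL-5 index gave 1433, 879, 1589, 592 and 575 CPM in the same order. The lowest, median and highest cell at 30 min were 136, 1300.3 and 2772 CPM in the IL-13 index and 0, 1153 and 2928 CPM in the IL-5 index. In silent cells they were 46.5, 513 and 1112 CPM in the IL-13 index and 0, 419 and 1182 CPM in the IL-5 index. The IL-5 cells at 0 CPM were libraries of only 73 gene reads (30 min) and 2152 gene reads (silent), so their lack of Rora reads says little. The groups overlapped at their edges: between 7 and 10 of 11 stimulated cells in each IL-13 group, and between 4 and 10 in each IL-5 group, lay above the highest pre-stimulation cell.

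The log2 ratio of Rora to pre-stimulation cells was 3.71 at 30 min in the IL-13 index (95% counting interval 3.41 to 4.04), a 13.1-fold difference, and 2.92 in the IL-5 index (2.73 to 3.11), or 7.55-fold. At 60 min the ratios were 3.53 and 2.21, and at 90 min 2.97 and 3.07. Activated cells stood at 2.58 (2.27 to 2.91) and 1.64 (1.44 to 1.84), and silent cells at 2.61 (2.30 to 2.94) and 1.60 (1.40 to 1.80). The 5 comparisons of an index share its pre-stimulation cells, whereas the indexes share none. Leaving out any 1 cell kept all of these log2 ratios between 1.24 and 4.90. Within the first title date they were 3.88, 3.60, 2.55, 2.17 and 2.13 in the IL-13 index and 3.09, 2.01, 3.04, 2.17 and 1.77 in the IL-5 index. Genes higher past 2-fold in both indexes, as Rora was, made up 12.7% of those tested at 30 min, 12.5% at 60 min, 14.6% at 90 min, 18.1% in activated and 9.69% in silent cells. Detection of Rora after thinning was 3 of 5 cells (60.0%, exact binomial interval over cells 14.7 to 94.7%) before stimulation in each index and complete in each stimulated group.

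**Figure D2:**
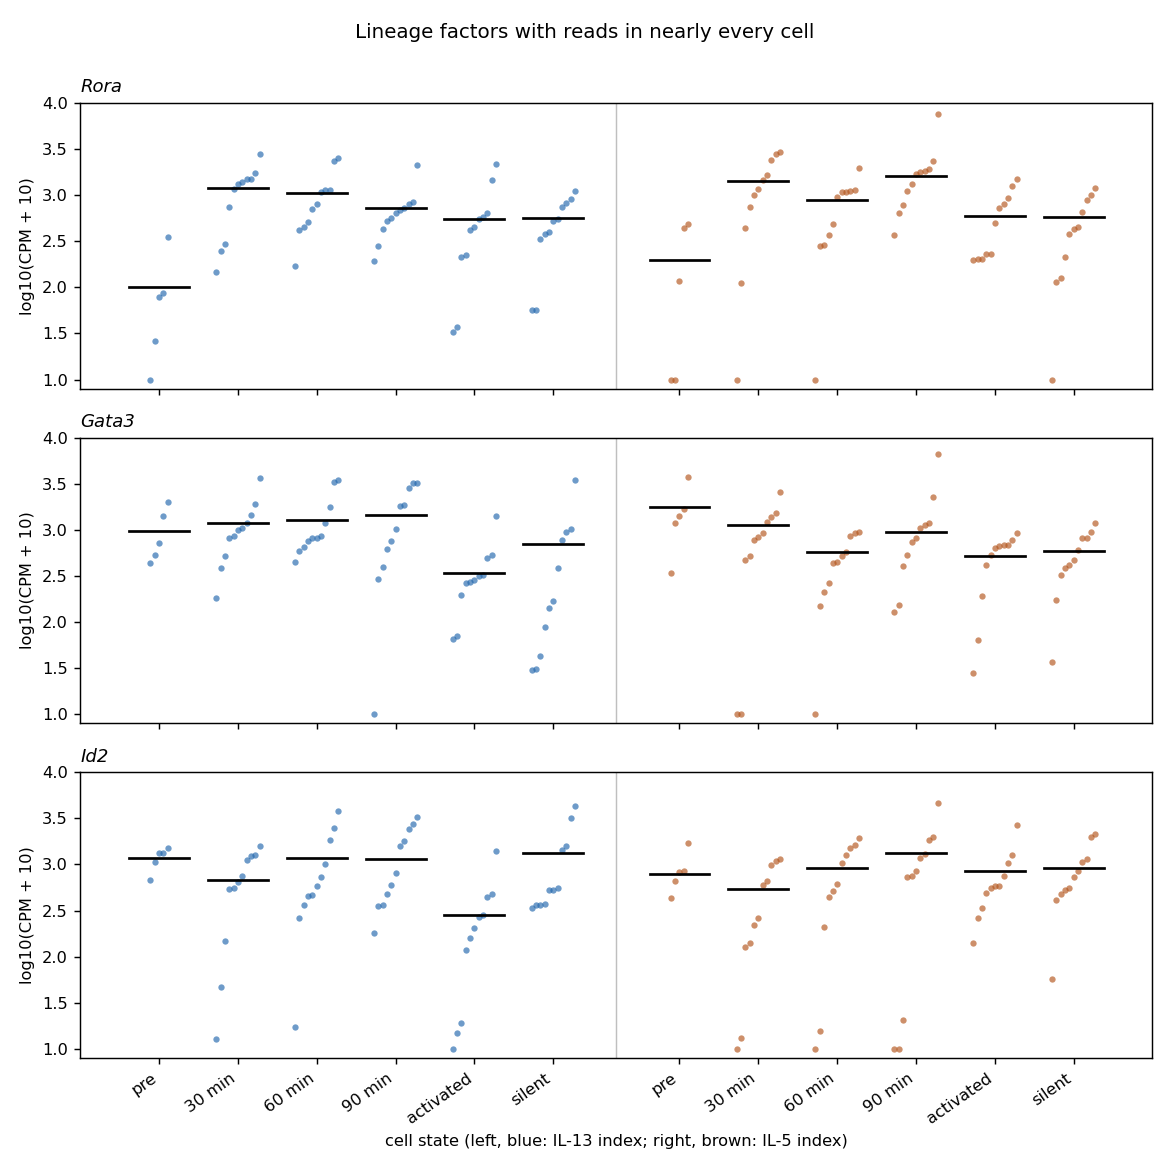
Level of Rora, Gata3 and Id2 in each cell, as log10(CPM + 10), with 1 point per cell, the 5 pre-stimulation and 11 cells of each other state side by side, and a black line at the CPM of the summed cells. A point at 1.0 is a cell without reads. Rora lines lie at 91.3 and 189.7 CPM before stimulation and at 546 CPM or more afterwards, and the Gata3 and Id2 lines of IL-13 activated cells lie below all other lines of their panels.

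Gata3 stayed within 2-fold of pre-stimulation cells during the transition in the IL-13 index and was lower in activated cells of both indexes. The pre-stimulation cells held 524, 2014, 1402, 427 and 718 CPM in the IL-13 index and 1402, 3741, 329, 1177 and 1671 CPM in the IL-5 index. Group levels were 961 CPM before stimulation, 1180 at 30 min, 1278 at 60 min, 1446 at 90 min, 333 in activated and 690 in IL-13 silent cells. They were 1752, 1108, 566, 946, 506 and 581 CPM in the IL-5 index. In IL-13 activated cells the lowest, median and highest cell were 54.9, 274 and 1399 CPM, and 8 of 11 lay below the lowest pre-stimulation cell. In IL-5 activated cells they were 17.9, 631 and 907 CPM, and 3 of 11 lay below it.

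The log2 ratio of Gata3 in activated against pre-stimulation cells was -1.53 for the IL-13 index (counting interval -1.66 to -1.40) and -1.79 for the IL-5 index (-1.88 to -1.70). Among genes with a mean of at least 500 CPM, 8.14% were lower past 2-fold in both indexes. In the IL-13 index the transition ratios were 0.30, 0.41 and 0.59 at 30, 60 and 90 min, and silent cells stood at -0.48. For the IL-5 index they were -0.66, -1.63 and -0.89, with silent cells at -1.59. Among IL-5 pre-stimulation cells, replicate 2 carried 54.0% of the Gata3 reads. Without it the IL-5 ratios were 0.04 at 30 min, -0.93 at 60 min, -0.19 at 90 min, -1.09 in activated and -0.89 in silent cells, so of the 3 groups lower by 2-fold in that index, activated cells stayed so. In IL-13 silent cells replicate 11 held 49.6% of the reads, and without it their ratio was -1.32. Gata3 overlaps the same-strand gene 9230102O04Rik, which held 17.0% of the reads of the pair, and how reads were split between these genes is uncertain.

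The summed level of Id2 stayed within 2-fold of its starting level in every group except IL-13 activated cells, whereas the median cell of the IL-13 index was lower in all 5 stimulated states. Its pre-stimulation cells held 1324, 664, 1335, 1499 and 1051 CPM in the IL-13 index and 1709, 417, 649.6, 829 and 849.7 CPM in the IL-5 index. From pre-stimulation to silent cells, the group levels in the IL-13 index were 1180.0, 671, 1174, 1140.2, 269.9 and 1306 CPM. In the IL-5 index they were 786, 534, 896, 1307, 845 and 906 CPM. The median cell held 1324 CPM before stimulation in the IL-13 index, and 638, 571, 789, 195 and 516 CPM at 30, 60 and 90 min and in activated and silent cells. Of 11 cells each, 6, 6, 5, 10 and 7 lay below the lowest pre-stimulation cell. The summed levels at 60 min and in silent cells rested in part on single high cells, of 3763 and 4348 CPM, with 35.8% and 29.6% of the group's reads. In the IL-5 index the median cell held 829 CPM before stimulation and 249.5, 606, 837, 572 and 729 CPM afterwards, and 6, 3, 3, 3 and 2 of 11 cells lay below the lowest pre-stimulation cell. In IL-13 activated cells the lowest and highest cell were 0 and 1377 CPM. The log2 ratio of the summed level there to pre-stimulation cells was -2.13 (counting interval -2.26 to -1.999) and lay between -2.68 and -1.93 on leaving out any 1 cell. The same ratio in the IL-5 index was 0.10 (-0.001 to 0.21). Every other ratio of Id2 to pre-stimulation cells lay between -0.82 and 0.73. The value of -0.82, in the IL-13 index at 30 min, was past 2-fold at -1.07 without 30 min replicate 7, which held 25.3% of the reads. With all cells kept, the summed level at 30 min, 60 min, 90 min and in silent cells was within 2-fold in both indexes, as were 63.2%, 66.2%, 60.7% and 66.9% of genes with a mean of at least 500 CPM. Levels nevertheless differed widely between single cells, for example from 2.77 to 1567 CPM at 30 min in the IL-13 index.

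**Figure D3:**
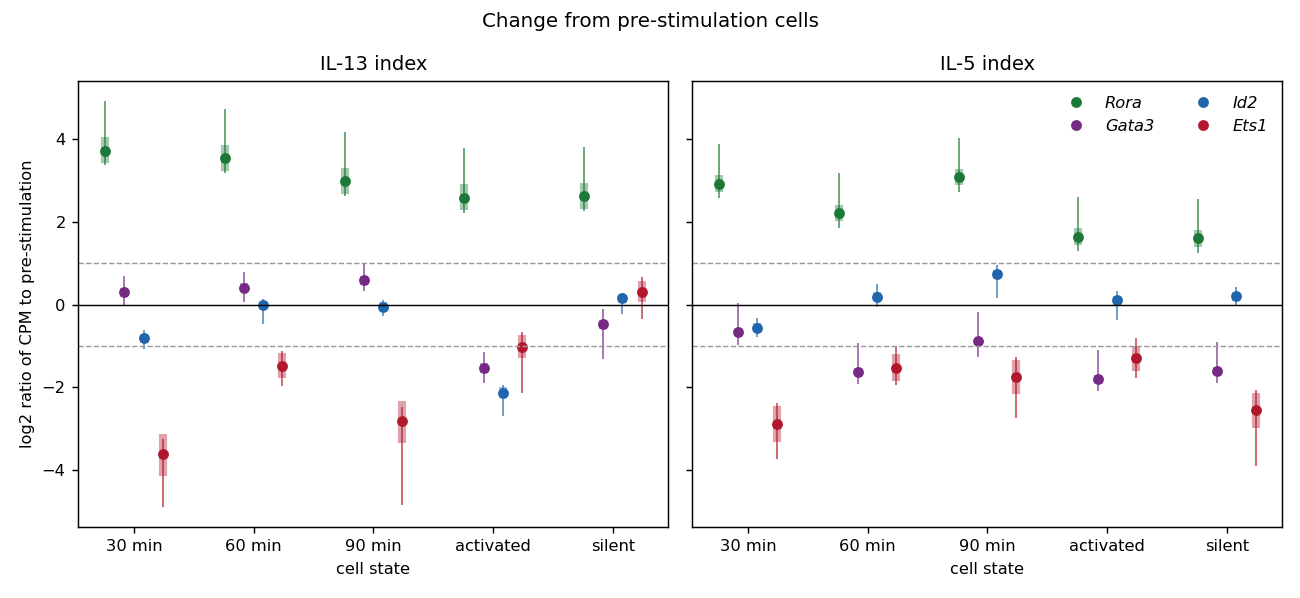
Log2 ratio of CPM in each stimulated state to pre-stimulation cells for Rora, Gata3, Id2 and Ets1, in the IL-13 (left) and IL-5 index (right). Points are the ratios of summed counts, wide bars the 95% counting intervals, thin lines the range on leaving out any 1 cell, and dashed lines 2-fold. Rora lies between 1.60 and 3.71 throughout, Ets1 lies below 0 except in IL-13 silent cells at 0.31, and Id2 leaves the 2-fold band in IL-13 activated cells at -2.13.

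Ets1 was lower than before stimulation in each stimulated group except IL-13 silent cells. The pre-stimulation cells held 16.3, 290.3, 339.9, 0 and 329 CPM in the IL-13 index and 30.0, 0, 181, 143 and 308 CPM in the IL-5 index, so 4 of 5 cells had reads in each. The group levels were 187 CPM before stimulation, 15.3 at 30 min, 67.3 at 60 min, 26.4 at 90 min, 92.4 in activated and 232 in IL-13 silent cells. They were 132, 18.0, 46.0, 39.4, 53.6 and 22.5 CPM in the IL-5 index. The groups overlapped, since cells without Ets1 reads occurred in all 12. After thinning, Ets1 was detected in 8 of 10 pre-stimulation cells, and in 28.6% of cells at 30 min, 42.9% at 60 min, 27.8% at 90 min, 45.5% of activated and 38.1% of silent cells over both indexes.

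At 30 min the log2 ratio of Ets1 to pre-stimulation cells was -3.61 for the IL-13 index (counting interval -4.13 to -3.11) and -2.87 for the IL-5 index (-3.31 to -2.45). At 60 min it was -1.47 and -1.52, at 90 min -2.82 and -1.75, and in activated cells -1.01 and -1.30. Leaving out any 1 cell kept these 8 ratios below 0, between -4.87 and -0.66. Without pre-stimulation replicate 5 of their index, which held 39.4% (IL-13) and 41.2% (IL-5) of the group's reads, the ratios of activated cells were -0.66 and -0.81 and no longer past 2-fold. Genes lower past 2-fold in both indexes made up 8.66% of those tested at 30 min, 9.45% at 60 min, 10.0% at 90 min and 14.8% in activated cells. Silent cells differed between the indexes, with 0.31 in the IL-13 and -2.55 in the IL-5 index. The IL-13 value rested on the second title date, since it was -1.30 in the first date alone, and replicate 6 held 44.4% of the reads of that group and gave -0.36 when left out.

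The differences of Bcl11b rested on single cells. Before stimulation it was read in 1 of 5 cells in each index, at 705 CPM in the IL-13 and 443 CPM in the IL-5 index, and the other 4 cells of each index held 0 reads. In stimulated groups it was read in 0 to 6 of 11 cells, with a highest cell of 871 CPM among IL-13 silent cells. The log2 ratio to pre-stimulation cells at 30 min was -3.91 in the IL-13 and -4.18 in the IL-5 index, and without the single positive pre-stimulation cell, against the floor of 3 reads, it was at least 1.12 and 0.86. In the IL-5 index 0 reads were counted in the 11 cells at 60 min and in the 11 at 90 min (the limit of 3 counts allows up to 27.3% of cells each). Against the floor of 3 reads these groups were at least 122-fold and 65.4-fold lower than pre-stimulation cells. Without the single positive pre-stimulation cell both sides held 0 reads, so no ratio is given. Over both indexes Bcl11b was detected after thinning in 20.0% of pre-stimulation, 27.3% of activated and 33.3% of silent cells.

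Tox, Tcf7, Gfi1 and Zbtb16 were read in the fewest cells. Tox, an HMG-box factor of early ILC progenitors, was read in 4 of 11 IL-13 silent cells, at a group level of 107 CPM (95.2 to 121), and in 0 of 5 IL-13 pre-stimulation cells. By the limit of 3 counts, 0 of 5 cells allows up to 60.0% of cells with a read. Against the floor of 3 reads over the pre-stimulation group, the silent level was at least 34.5-fold higher in reads, a size that covers no sampling of cells. The highest silent cell, replicate 8, held 42.6% of the reads. IL-13 activated cells held 4.07 CPM, all of it in 1 cell, which gave a log2 ratio of -4.72 (-5.65 to -3.92) to silent cells, and the ratio was negative in both title dates. In the IL-5 index Tox held 19.8 CPM before stimulation, 8.84 CPM in activated and 14.4 CPM in silent cells, with reads in 1, 3 and 3 cells. Tcf7, encoding TCF-1, had 201 reads in all, in 7 cells, 4 of which were silent. Gfi1 had 74 reads, in 5 cells. Zbtb16 had 0 reads in 120 cells, which by the same limit of 3 counts allows a share of up to 2.5% of cells with a read and a level of up to 0.0967 CPM over all gene reads.

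**Figure D4:**
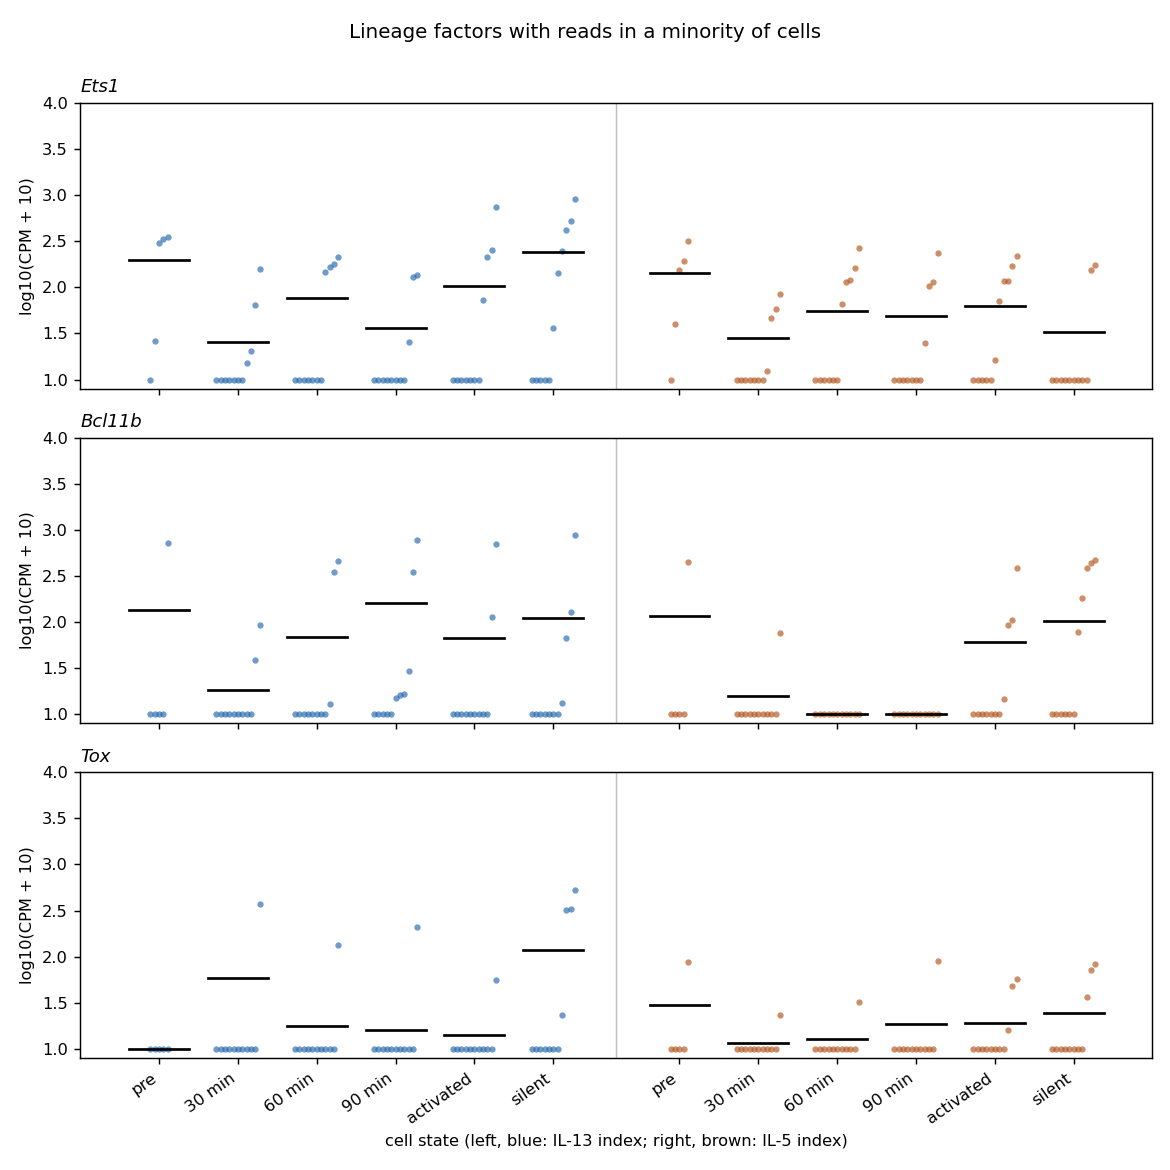
Level of Ets1, Bcl11b and Tox in each cell, as log10(CPM + 10), with 1 point per cell and a black line at the CPM of the summed cells. A point at 1.0 is a cell without reads. The Ets1 points of the pre-stimulation groups lie at 339.9 CPM or lower, Bcl11b rests on 1 of 5 pre-stimulation cells in each index, and the Tox points of IL-13 silent cells reach 514 CPM.

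Counts of the factors past 2-fold stand here beside the share of all genes tested, and with 5 or 6 factors they were not tested against it. In the IL-13 index 3 of 5 factors with enough reads differed from pre-stimulation cells by 2-fold or more at 30 min, 3 at 60 min, 2 at 90 min, 5 of 5 in activated and 2 of 6 in silent cells. The share of all genes tested was 56.3%, 55.4%, 58.2%, 60.5% and 54.1%. Of 5 factors tested in the IL-5 index, the counts were 3, 4, 3, 4 and 3, against 56.5%, 57.9%, 59.5%, 61.3% and 56.4% of all genes. The median log2 ratio of the tested factors in the IL-13 index was -0.82, -0.007, 0.28, -1.11 and 0.23 at 30, 60 and 90 min and in activated and silent cells, beside -0.23, -0.20, -0.09, -0.15 and 0.05 over all genes tested. For the IL-5 index it was -0.66, -1.52, -0.89, -1.07 and -0.20, beside -0.19, -0.20, -0.07, -0.32 and -0.16. The medians of the factors were thus below those of all genes in all 5 states of the IL-5 index and in 2 of 5 in the IL-13 index. The 5 states of an index share its pre-stimulation cells, so they are not independent results. Each IL-5 median was the value of 1 factor, Gata3 at 30 and 90 min and Bcl11b in activated and silent cells. Both factors depended on 1 pre-stimulation cell, as given above, and in silent cells the medians were close.

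In the IL-13 index the summed levels of Id2, Gata3, Ets1 and Tox were lower in activated than in silent cells. In the IL-5 index Id2, Gata3 and Rora lay within 2-fold. Activated against IL-13 silent cells had log2 ratios of -2.27 for Id2 (-2.38 to -2.17), -1.05 for Gata3, -1.33 for Ets1 and -4.72 for Tox, so 4 of 6 tested factors were past 2-fold, against 45.0% of genes. For Gata3 the difference rested on 1 silent cell, replicate 11, with 49.6% of the group's reads, and was -0.21 without it. The median cell of Gata3 went the other way, at 274 CPM in activated and 158 CPM in silent cells. For Id2 it was -1.08 in the first and -2.75 in the second title date. For Ets1 the dates gave 0.42 (first) and -1.85 (second), and it was -0.66 without silent replicate 6. In the IL-5 index Id2 stood at -0.10 (-1.05 and 0.43 in the first and second date), Gata3 at -0.20 and Rora at 0.04, and 0 of 4 tested factors were past 2-fold, against 30.4% of genes. Rora in the IL-13 index stood at -0.03 (-0.13 to 0.07). Whether the indexes differ in these ratios was not tested.

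The level reached soon after onset exceeded that of activated cells for Rora and Gata3 in both indexes. Cells at 30 min against activated cells had log2 ratios of 1.13 (1.05 to 1.22) and 1.28 (1.20 to 1.35) for Rora, and of 1.82 and 1.13 for Gata3, in the IL-13 and IL-5 index. Among genes tested, 10.8% were higher past 2-fold in both indexes. In each title date the ratios kept their sign, and were 1.71 and 0.81 (IL-13 index) and 0.91 and 1.70 (IL-5 index) for Rora. The call for Rora in the IL-13 index rested on 30 min replicate 3 (0.98 without it), and that for Gata3 in the IL-5 index on 30 min replicate 11 (0.82 without it, and 0.60 in the first date). Id2 went opposite ways, at 1.31 in the IL-13 and -0.66 in the IL-5 index. Past 2-fold in either direction were 4 of 4 tested factors in the IL-13 index, against 49.5% of genes, and 2 of 3 in the IL-5 index, against 37.9%.

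Other regulators of ILC were examined as a list of 28 genes. Between 4 and 13 of them had enough reads in a comparison with pre-stimulation cells. Past 2-fold in the IL-13 index, 3 of 8 were higher and 0 lower at 30 min, 3 of 7 higher and 1 lower at 60 min, 5 of 7 higher and 1 lower at 90 min, 1 of 4 higher and 1 lower in activated and 1 of 4 higher and 0 lower in silent cells. Their median log2 ratios were 0.72, 0.69, 3.58, 0.46 and 0.28, with genes without pre-stimulation reads set at the floor of 3 reads. For the IL-5 index the counts were 2 of 10 higher and 4 lower at 30 and at 60 min, 5 of 13 higher and 3 lower at 90 min, 2 of 9 higher and 5 lower in activated and 3 of 11 higher and 5 lower in silent cells, with medians of -0.19, -0.07, -0.31, -1.39 and -0.77. In the same order of states, 25.7%, 25.3%, 28.5%, 26.9% and 28.8% of all genes tested were higher past 2-fold in the IL-13 index. The share lower was 30.7%, 30.1%, 29.7%, 33.6% and 25.3%. For the IL-5 index 26.3%, 26.2%, 29.5%, 25.6% and 24.8% were higher, and 30.2%, 31.6%, 30.0%, 35.7% and 31.6% lower. The medians over all genes are those given above for the factors. Rbpj, the DNA-binding partner of Notch, stood at 14.5 CPM before stimulation and 353, 219, 333, 61.7 and 368 CPM afterwards in the IL-13 index. IL-5 cells stood at 45.4 and then 272, 260.2, 226, 94.9 and 214 CPM. Its log2 ratios to pre-stimulation cells lay between 1.06 and 4.66, and IL-13 activated cells had too few reads for a call. Ahr, the aryl hydrocarbon receptor, held 0 reads in both pre-stimulation groups and 455 and 227 CPM at 30 min, and it was at 147 and 35.4 CPM in activated and 20.4 and 192 CPM in silent cells of the IL-13 and IL-5 index. Ikzf1, encoding Ikaros, was lower in activated cells of both indexes, with log2 ratios of -1.14 and -1.94.

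The partners and alternatives of these factors were at low levels, as were most genes counted. Of 6 E proteins and other Id family members, 0 reached a mean of 50 CPM, and the highest were Tcf12 with 26.6 CPM and Tcf3 with 19.7 CPM on average over the groups. Of all 46078 genes counted, 2658 reached that mean, so a count of 0 of 6 does not set this list apart. Of 12 factors of other lineages, 9 held 0 reads in all 120 cells, including Tbx21, Eomes, Foxp3, Gata1 and Spi1, and the highest was Bcl6 with a mean of 7.13 CPM. The share of all genes without a read is not given here, for these factors or for the marker lists below.

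The patterns most like those of the factors were sought among 2658 genes by Pearson's r of log2(CPM + 10) over the 12 groups, as a description over 12 points that differ in depth, with medians of 156702 to 331939 gene reads per cell. Rora was closest to Nfkb1 (r = 0.957), a subunit of the transcription factor NF-kappaB, and to Bcor (r = 0.933), a transcriptional corepressor. Nfkb1 stood at 110 and 161 CPM before stimulation, at 881 and 1204 CPM at 30 min and at 500 and 451 CPM in activated cells of the IL-13 and IL-5 index. Gata3 was closest to Dock10 (r = 0.904) and Atp2b1 (r = 0.896), a plasma membrane calcium pump. Id2 was closest to Apobec3 (r = 0.811) and Capns1 (r = 0.807), Ets1 to Ndufs3 (r = 0.858) and Rnf187 (r = 0.845), and Bcl11b to Mrpl55 (r = 0.854) and Eno1 (r = 0.826). Between pairs of the 5 factors, r ran from -0.700 (Rora and Ets1) and -0.684 (Rora and Bcl11b) to 0.426 (Gata3 and Id2) and 0.509 (Bcl11b and Ets1).

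**Figure D5:**
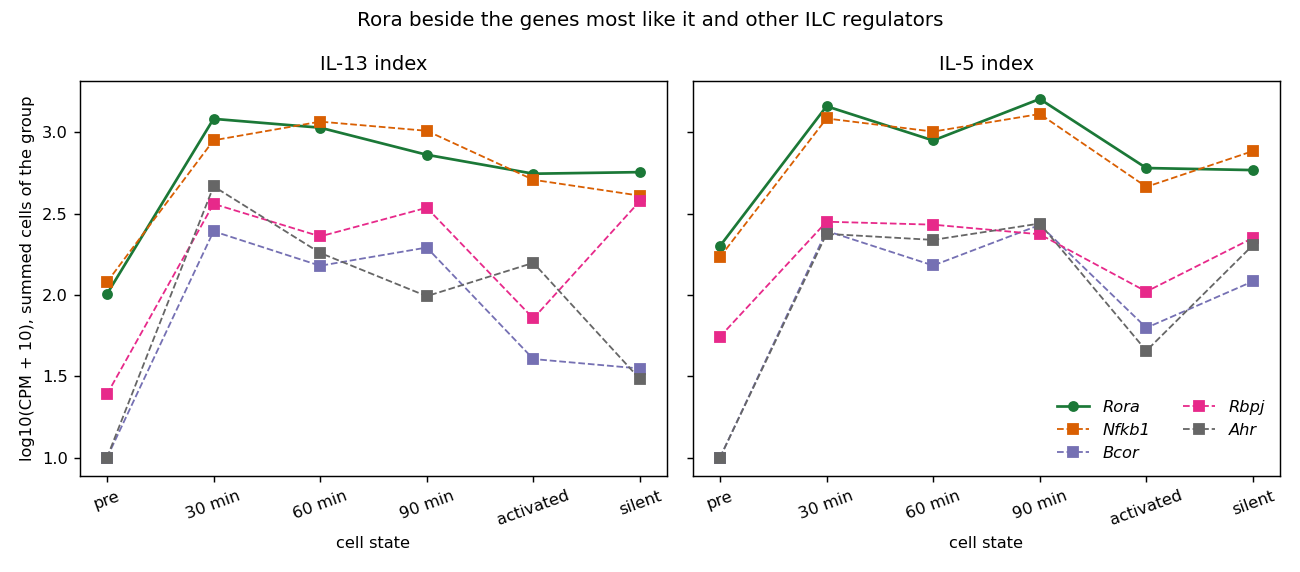
Group level of Rora beside Nfkb1, Bcor, Rbpj and Ahr, as log10(CPM + 10) of the summed cells in each state, for the IL-13 (left) and IL-5 index (right). All 5 genes have their lowest point in pre-stimulation cells, where Rora and Nfkb1 lie between 91.3 and 189.7 CPM, against 881 CPM or more at 30 min.

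Of the 14 markers of ILC2, reads were found for Ly6a (Sca-1) in 120 of 120 cells. Il1rl1, the IL-33 receptor, was read in 113 cells, Il2ra in 113 and Kit in 110. The numbers were 95 for Il2rb, 92 for Klrg1, 70 for Ptprc, 69 for Icos, 53 for Thy1 and 46 for Il7r. Arg1 was read in 22 cells, Areg in 14 and Il17rb in 13, and Ptgdr2 (CRTH2) had 0 reads. All 4 B cell and all 6 NK cell and ILC1 markers held 0 reads, and 4 of 6 myeloid and mast cell and 5 of 6 stromal, fat and endothelial markers did. Of 9 T cell markers 3 were at 0, Cd4, Cd8a and Cd8b1, and their summed level ran from 327 CPM in IL-5 activated cells to 1884 CPM in IL-5 pre-stimulation cells. Most of it was Cd3g and Trbc2. The summed T cell level was highest in the pre-stimulation groups, where Rora was lowest, and its part in the differences from them was not tested. One IL-13 pre-stimulation cell, replicate 1, held 9206 CPM of cell cycle markers and 4034 CPM of Cd3g, and without it the Rora ratios of that index lay between 2.22 and 3.36. Of the IL-5 pre-stimulation cells, replicate 5 held 943 CPM of Mki67, a cell cycle marker, and replicates 2 and 3 held 3643 and 1254 CPM of Cd3g. Without replicate 5, 2 or 3 in turn, the Rora ratios of the IL-5 index lay between 1.32 and 2.79, 1.40 and 2.87, and 1.24 and 2.71.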

How the data were processed

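Single mouse ILC2 were sequenced from the 3′ ends of transcripts, with 1 library per cell. Per the labels and the study's methods, the authors aligned reads with TopHat2 and deposited raw counts per Ensembl gene made with HTSeq. The submitters' notes name the builds GRCh38 and mm10, and all gene identifiers are those of mouse. Versions, annotation release and strand setting are not given in the sources used here. The 5 summary entries were left out: 62.0% of alignments lay in genes, 28.7% were not unique, 7.42% had no feature and 1.86% were ambiguous. Reads carry no molecular identifiers. Symbols were matched for 45143 of 46078 identifiers.

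Counts were summed over the cells of each group and divided by the group's gene reads (CPM), with exact 95% Poisson intervals. Log2 ratios of CPM had exact binomial counting intervals and a floor of 3 reads over a group. A gene entered a comparison where its CPM averaged 50 or more across both groups, and was called at 2-fold or more. This is a rule of size, not a statistical test, since each group is 1 sample. Detection was compared after thinning cells to 100000 gene reads. The 14 comparisons were each state with pre-stimulation cells, activated with silent cells, and 30 min with activated cells, in each index. The genes named were the 9 members, the 2 genes most like each member with enough reads, and, from each list, the 2 with the highest means and up to 4 called the same way in both indexes for activated or silent cells. Other marker genes, among them the rest of the ILC2 list, and factors of other lineages were named outside this rule after their values were seen. Many of these were at 0 reads. Some genes of the lists are not reported here. The members and lists were chosen with earlier results of these data known. Alternatives changed the scaling (edgeR 4.0.16 TMM and DESeq2 1.42.0 size factors, R 4.3.3), the minimum, the fold, the pre-stimulation cells and the cells included. The ratios were tested on simulated data. Other steps used Python 3.11.15, numpy 2.4.6, pandas 2.3.3 and scipy 1.17.1. Promoter sequences are those of RefSeq (GRCm38.p6), in which 6 of 9 members were matched, and the 50 bases after each start were left out. No sequence was matched for Ets1, Zbtb16 and Tox.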

Additional observations from a re-analysis of the deposited data

Results flagged for a closer look

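In 5 of the 12 sets of 5 pre-stimulation cells with differing values of a factor, 1 cell lay far from the others. In 4 of these 5 sets the other 4 cells held 0 reads, so that any single cell with reads stands apart by construction. No rate expected by chance is given for such sets. These cells held 339.9 CPM of Rora and 705 CPM of Bcl11b in the IL-13 index, and 443 CPM of Bcl11b, 22.7 CPM of Gfi1 and 78.3 CPM of Tox in the IL-5 index. The cell with Tox reads was pre-stimulation replicate 2 of the IL-5 index, which also held 54.0% of the Gata3 reads of its group and 3643 CPM of Cd3g.

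Some log2 ratios had opposite signs in the 2 indexes, and the differences between indexes were not tested. Against pre-stimulation cells, Gata3 stood at 0.30 (IL-13) and -0.66 (IL-5) at 30 min, at 0.41 and -1.63 at 60 min, and at 0.59 and -0.89 at 90 min. Without pre-stimulation replicate 2 the IL-5 values were 0.04, -0.93 and -0.19. Id2 at 30 min against activated cells stood at 1.31 and -0.66. Ets1 in silent against pre-stimulation cells stood at 0.31 and -2.55.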

How the results depend on the processing

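The 42 calls of factors gave 316 values under the alternatives other than leaving out 1 cell, of which 315 kept their direction and 284 stayed past 2-fold. For Rora it was 93 and 91 of 93. Whichever 1 cell was left out, 35 of the 42 calls kept their direction and 27 stayed past 2-fold, among them 11 of 12 for Rora and 0 of 7 for Bcl11b. Leaving out 1 cell at a time turned Bcl11b to at least 1.12, 3.95 and 3.93 at 30 min, 60 min and in IL-13 activated cells, and to at least 0.86 and 3.96 at 30 min and in activated cells of the IL-5 index, through the single positive pre-stimulation cell, with the other cells set at the floor of 3 reads. The lowest values without 1 cell were -5.67, -2.37 and -3.87, and -6.85 (against the floor, so at most this) and -2.49, in the same order. In the first title date alone Ets1 in activated against silent IL-13 cells was 0.42. The following are the larger changes in the number of factors past 2-fold, and smaller changes are not listed. Among those unlisted, Gata3 in activated against silent IL-13 cells kept its call in 1 of 6 alternatives. Bcl11b at 60 min in the IL-13 index kept its call in 3 of 8. In the IL-13 index, a minimum of 200 CPM gave 1 at 30, 60 and 90 min and in silent cells, 3 in activated cells and 2 for activated against silent cells. A 4-fold limit gave 1 at 60 min, 2 in activated cells, 2 for activated against silent and 1 for 30 min against activated cells. No minimum gave 5 at 60 min. Activated cells gave 3 when each cell's own CPM was averaged, with TMM factors, with the pre-stimulation cells of both indexes and with a pseudocount of 10 CPM. Averaging each cell's own CPM gave 2 for activated against silent cells. The first date gave 4 in silent cells and 1 for activated against silent cells. Leaving out 1 cell gave a lowest count of 3 in activated and a highest of 4 in silent cells. In the IL-5 index, a minimum of 200 CPM gave 1 at 30 and 90 min and 2 at 60 min and in activated cells. A 4-fold limit gave 2 at 60 min, 0 in activated cells, 1 in silent cells and 0 for 30 min against activated cells. No minimum gave 5 at 30 min, 6 at 90 min, 3 for activated against silent and 7 for 30 min against activated cells, and a minimum of 10 CPM gave 5 at 90 min and 1 and 4 for these contrasts. TMM factors gave 2 in activated cells. Averaging each cell's own CPM gave 1 for both contrasts, and the first date gave 1 and 0. Leaving out 1 cell gave a highest count of 1 for activated against silent and a lowest of 1 for 30 min against activated cells. Apart from what fewer cells or genes tested bring by construction, the cause was not tested. TMM scaling moved the median of all genes by up to 0.47 (IL-5 activated against pre-stimulation cells). No paired analysis was possible because each group counted as 1 sample and no test was made. Cells of an index share title dates, and the report gives ratios within them. Results without the pre-stimulation cell with cell cycle reads were chosen after seeing the data. With 5 or 11 cells a group, and no culture or animal named, the spread between cultures is unknown.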

Other observations

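Of 11 tested surface and effector markers of ILC2, 1 was higher and 6 were lower past 2-fold in IL-13 activated cells and 1 was higher and 4 were lower in IL-5 activated cells, against 60.5% and 61.3% of all genes in either direction. Klrg1, an inhibitory receptor of mature ILC2, stood at 807 and 714 CPM in pre-stimulation cells of the IL-13 and IL-5 index and at 43.5 and 104 CPM in activated cells. Ptprc, encoding CD45, was lower past 2-fold in activated and in silent cells of both indexes. Il2ra, a subunit of the IL-2 receptor, was higher past 2-fold in activated cells of both indexes.

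Some markers of other cells were read in part of the cells. Cd3g was read in 26 cells and Trbc2 in 98, and Fcer1a in 15. Pecam1 was read in 77 cells. Il22, the signature cytokine of ILC3, was read in 3 cells, all of them IL-13 activated, at a group level of 344 CPM.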
